A study of Mus musculus with 17 samples.

Results

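The genes described here are Cpa3, Ms4a2, Hdc, Fcer1a, Mcpt8 and Il1rl1, 6 genes that mark mast cells and basophils. They were taken by name, and every probe set annotated to exactly 1 of these symbols was read on all 17 arrays. That gave 7 of the 45037 probe sets, with 1 each for Cpa3 (1448730_PM_at), Fcer1a (1421775_PM_at) and Mcpt8 (1449965_PM_at) and 2 each for Ms4a2 (1443264_PM_at and 1421475_PM_at) and Hdc (1454713_PM_s_at and 1451796_PM_s_at). In the annotation used here 0 probe sets carry the symbol Il1rl1, so the gene of the interleukin-33 receptor chain ST2 is not analysed here.

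Mast cells and basophils are granulated cells that release histamine and proteases when an antigen crosslinks IgE on their surface. IgE is held by the high-affinity receptor FceRI, whose alpha chain (Fcer1a) binds the antibody, whose beta chain (Ms4a2) amplifies the signal and whose gamma chain (Fcer1g) is shared with other Fc receptors. Cpa3 encodes carboxypeptidase A3 of mast cell granules, Mcpt8 a serine protease used as a marker of mouse basophils, and Hdc histidine decarboxylase, the enzyme that makes histamine. In bone marrow both lineages arise from progenitors that need the transcription factor GATA2, and neutrophils are also known to make histamine.

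The arrays measured mouse cells that were sorted by flow cytometry from animals 6 to 10 weeks old. From spleen of wild-type mice came macrophages (CD11c-CD11b+MCSFR+, n = 3 pools) and granulocytes (CD11c-CD11b+Ly6C+MCSFR-, n = 3). From bone marrow came myelo-dendritic progenitors (MDPs), sorted as lineage-sca1-CD127-CD117+MCSFR+ cells and regarded as a precursor of macrophages and dendritic cells. MDPs were wild-type (n = 3), labelled as IRF8 knockout (IRF8_ko_MDP, n = 3), from reporter mice and positive for the fluorescent protein VENUS (IRF8_PAC_MDP, n = 3), or without VENUS expression (IRF8_neg_MDP, n = 2). The knockout-labelled group and both VENUS groups share the genotype label IRF8-deficient, and the labels do not say what allele that stands for in the VENUS groups, nor which promoter drives VENUS. The spleen, wild-type and knockout pools each held cells of 5 mice, and the labels give no such number for the VENUS pools. The pools are separate samples, and because each is a mixture of sorted cells, a lower level can mean fewer cells of a kind or less RNA per cell, which cannot be told apart. A level is the authors' RMA value on the log2 scale, and values under the lower quartile of an array, which lay between 3.18 and 3.42, are near the bottom of the scale.

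Because Cpa3, Ms4a2 and Fcer1a reached their highest levels in the same few MDP arrays, the start regions of these genes are printed with that of Hdc, which was highest in another cell type. Mcpt8 was also highest in those arrays, at 8.34 in wild-type pool 3 and 7.71 and 6.96 in the VENUS-negative pools. Its region was searched in the same way and is not printed. Each run is 300 bases from RefSeq, assembly GRCm38.p6, 250 before and 50 after the annotated start, written 5' to 3' on the minus strand, on which all 4 genes lie. Capitals mark the core words bound by GATA factors, found on either strand. The words searched were AGATAA and AGATAG together with TGATAA and TGATAG. The regions are chr3:20242132-20242431 for Cpa3, chr19:11623670-11623969 for Ms4a2, chr1:173227180-173227479 for Fcer1a and chr2:126618629-126618928 for Hdc.
Cpa3: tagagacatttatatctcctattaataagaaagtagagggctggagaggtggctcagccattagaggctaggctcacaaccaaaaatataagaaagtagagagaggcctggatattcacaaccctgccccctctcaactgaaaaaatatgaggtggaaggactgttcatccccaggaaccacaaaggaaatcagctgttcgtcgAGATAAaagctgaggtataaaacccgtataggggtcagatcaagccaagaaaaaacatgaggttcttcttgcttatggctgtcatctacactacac
Ms4a2: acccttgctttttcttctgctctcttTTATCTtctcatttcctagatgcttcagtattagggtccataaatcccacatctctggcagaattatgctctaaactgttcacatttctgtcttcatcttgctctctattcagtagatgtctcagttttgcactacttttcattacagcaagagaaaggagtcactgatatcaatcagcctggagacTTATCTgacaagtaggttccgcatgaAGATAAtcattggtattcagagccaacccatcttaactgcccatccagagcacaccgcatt
Fcer1a: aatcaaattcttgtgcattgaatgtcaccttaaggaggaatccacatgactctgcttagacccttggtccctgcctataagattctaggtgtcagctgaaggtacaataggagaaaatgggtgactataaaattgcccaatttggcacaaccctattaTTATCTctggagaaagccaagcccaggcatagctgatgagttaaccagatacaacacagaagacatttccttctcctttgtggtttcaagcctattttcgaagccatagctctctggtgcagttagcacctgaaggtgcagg
Hdc: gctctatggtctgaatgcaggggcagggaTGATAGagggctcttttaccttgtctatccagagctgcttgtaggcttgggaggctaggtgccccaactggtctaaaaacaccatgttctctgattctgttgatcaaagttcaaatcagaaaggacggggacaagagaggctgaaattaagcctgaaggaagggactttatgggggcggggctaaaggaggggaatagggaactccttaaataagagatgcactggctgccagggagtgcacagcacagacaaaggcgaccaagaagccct
Ms4a2 held 3 such words, starting 224, 37 and 11 bases before the start. Cpa3 held 1 at 46 bases, Fcer1a 1 at 92 bases and Hdc 1 at 221 bases before it, and Mcpt8 held 0. Of the 32851 start regions of this length in the RefSeq table, 29.8% held at least 1. The word GAGGAA, the core bound by PU.1, was searched on either strand as well. Fcer1a and Mcpt8 held 1 each and the other 3 regions 0, against 28.3% of all regions, and no match overlapped a GATA word. These are matches of letters only.

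One array has to be described before the results. Wild-type MDP pool 3 read far above wild-type pools 1 and 2 in every one of the 7 probe sets. The excess over the mean of the other pools was 3.96 log2 units for Fcer1a, 3.38 for Cpa3, 3.08 and 0.86 for Ms4a2, 1.98 and 1.21 for Hdc and 1.96 for Mcpt8. Over all probe sets the median excess was -0.02, and 223 of 45037 (0.495%) exceeded 2 units. Markers of other cells stood higher in that pool too. The mean level of 5 neutrophil markers was 9.62 there against 5.03 and 4.52 in pools 1 and 2, that of 6 erythroid markers 9.57 against 6.57 and 7.06, that of 5 megakaryocyte and platelet markers 5.60 against 3.98 and 4.80, and that of 5 NK-cell markers 5.61 against 4.34 and 4.49. Macrophage markers (6.07 against 5.36 and 5.51), T-cell markers (4.34 against 3.28 and 3.46) and B-cell markers (3.69 against 3.31 and 3.36) were higher there as well. MDP markers (7.93 against 7.78 and 8.01) and plasmacytoid dendritic cell markers (6.43 against 6.79 and 6.90) were not. The part of these other cells in the levels of the mast cell and basophil genes was not tested. The member comparisons with wild-type MDPs are therefore given with and without this pool, and so are most counts of the gene lists.

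**Figure D1:**
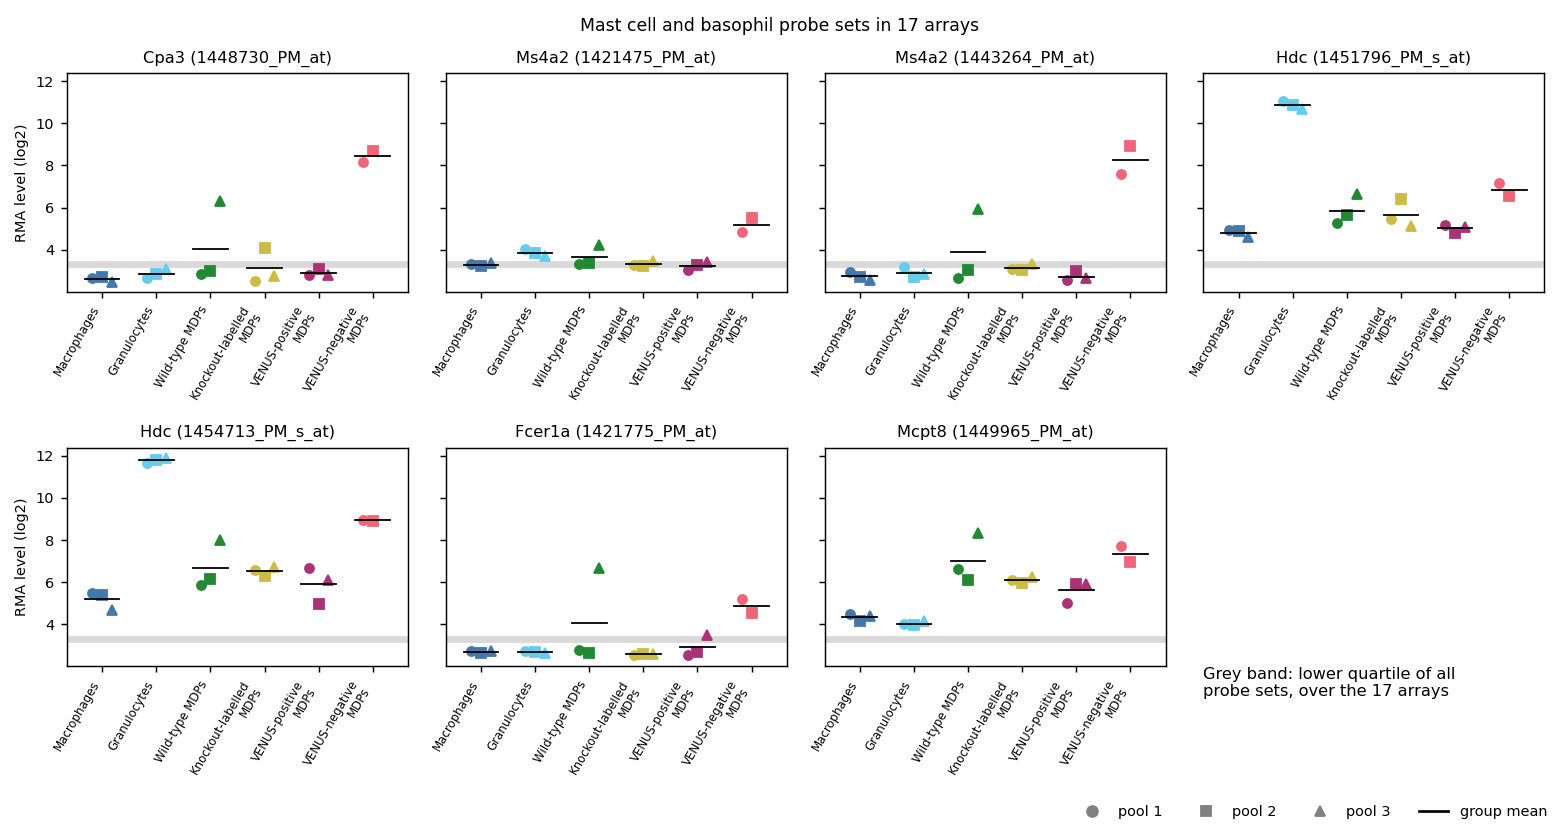
RMA level (log2) of the 7 member probe sets on each of the 17 arrays, by group. Points are pools (shape gives the pool number), lines are group means, and the grey band is the lower quartile of the arrays, 3.18 to 3.42. Cpa3 and both Ms4a2 probe sets are highest in the 2 VENUS-negative pools, Hdc in the 3 granulocyte pools, and wild-type MDP pool 3 stands above the other wild-type pools in every panel.

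Among the granule proteases, Cpa3 had a high level in VENUS-negative MDPs and in 1 wild-type pool. It read 8.16 and 8.70 in the VENUS-negative pools, where it stood above 91.0% and 93.9% of all probe sets of the array. In VENUS-positive pools 1 to 3 it read 2.82, 3.09 and 2.82, in pools 1 to 3 of wild-type MDPs 2.87, 2.98 and 6.31, and in knockout-labelled pools 2.52, 4.09 and 2.75. Spleen macrophages read 2.68, 2.70 and 2.49, and granulocytes 2.68, 2.83 and 3.08. The VENUS-negative pools did not overlap any other group, and outside them only wild-type pool 3 and knockout-labelled pool 2 lay above the lower quartile band. The group mean was highest in VENUS-negative (8.43) and next in wild-type MDPs (4.05). The remaining group means, 2.62 to 3.12, lay under the lower quartile band and carry no order. From wild-type through knockout-labelled and VENUS-positive MDPs to granulocytes each neighbouring pair overlapped. Granulocytes and macrophages overlapped as well, with the lowest granulocyte pool at 2.68 and the highest macrophage pool at 2.70.

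Mcpt8, the basophil protease, had another pattern, lying above the array medians (4.33 to 4.48) in every progenitor pool. It read 6.64, 6.11 and 8.34 in wild-type pools 1 to 3, 6.13, 5.96 and 6.24 in knockout-labelled pools, 5.02, 5.94 and 5.94 in VENUS-positive pools, and 7.71 and 6.96 in VENUS-negative pools. Spleen cells were lower, with 4.51, 4.17 and 4.39 in macrophages and 3.96 to 4.16 in granulocytes. No spleen pool reached the lowest MDP pool, 5.02. Among MDPs the ranges of VENUS-negative and wild-type pools overlapped, as did those of wild-type and knockout-labelled pools. The VENUS-negative range (6.96 to 7.71) lay above the knockout-labelled (5.96 to 6.24) and VENUS-positive (5.02 to 5.94) ranges. The VENUS-positive range lay under the wild-type one (from 6.11) and only just under the knockout-labelled one. The sources used here do not say whether this probe set also detects related proteases of the same family.

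Of the IgE receptor chains, Ms4a2 followed Cpa3. Its brighter probe set, 1443264_PM_at, read 7.59 and 8.90 in VENUS-negative pools and 5.95 in wild-type pool 3. Wild-type pools 1 and 2 gave 2.67 and 3.07. Knockout-labelled pools gave 3.11, 3.02 and 3.33. The level was 2.55, 2.98 and 2.66 in VENUS-positive pools, 2.94, 2.70 and 2.59 in macrophages and 3.16, 2.72 and 2.88 in granulocytes. Apart from the VENUS-negative pools and wild-type pool 3, every array was thus at or under the lower quartile band. The dimmer probe set, 1421475_PM_at, read 4.86 and 5.50 in VENUS-negative pools, 4.22 in wild-type pool 3 and 3.02 to 3.45 in the other MDP pools. Here granulocytes, at 4.03, 3.86 and 3.72, lay above macrophages, at 3.32, 3.22 and 3.35, which the brighter probe set did not show, its 2 spleen groups overlapping.

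Fcer1a, the IgE-binding chain, was highest in a single array. It read 6.69 in wild-type pool 3, above the 5.19 and 4.56 of the VENUS-negative pools, and 2.80 and 2.66 in wild-type pools 1 and 2. VENUS-positive pools read 2.55, 2.68 and 3.51, knockout-labelled pools 2.54, 2.61 and 2.62, macrophages 2.75, 2.64 and 2.73 and granulocytes 2.75, 2.72 and 2.66. The order of wild-type pool 3 and the VENUS-negative pools was the reverse of that for Cpa3 and Ms4a2. The group mean was highest in VENUS-negative (4.87) and next in wild-type MDPs (4.05). The remaining group means, 2.59 to 2.91, lay under the lower quartile band and carry no order. The wild-type range (2.66 to 6.69) overlapped that of every other group except the knockout-labelled one. There the highest knockout-labelled pool (2.62) and the lowest wild-type pool (2.66) were both under that band, so the gap between them shows no difference.

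Hdc, the histamine-forming enzyme, was highest in spleen granulocytes. Its brighter probe set, 1454713_PM_s_at, read 11.65, 11.78 and 11.90 there, above at least 99.6% of all probe sets of each array. VENUS-negative pools followed at 8.94 and 8.93 and wild-type pool 3 at 7.99. Wild-type pools 1 and 2 read 5.87 and 6.14, knockout-labelled pools 6.57, 6.29 and 6.70, VENUS-positive pools 6.68, 4.95 and 6.09 and macrophages 5.50, 5.42 and 4.67. Granulocytes and VENUS-negative pools overlapped neither each other nor any other group, while the remaining MDP groups overlapped. The other probe set, 1451796_PM_s_at, read 11.06, 10.86 and 10.68 in granulocytes, 7.16 and 6.54 in VENUS-negative pools, and 4.62 to 6.65 elsewhere. By this probe set VENUS-negative pool 2 lay under wild-type pool 3 (6.65), so the groups overlapped. In the granulocyte pools Cpa3, Fcer1a and the brighter Ms4a2 probe set were at 2.66 to 3.16, under the lower quartile band, and Mcpt8 at 3.96 to 4.16.

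Differences were tested with limma over all probe sets, and a probe set was called at an adjusted p under 0.05. VENUS-negative minus VENUS-positive MDPs called 5 of the 7 member probe sets, against 4.44% of all 45037 probe sets. All 5 rose. Cpa3 differed by 5.52 log2 units (SE 0.75, adjusted p = 4.91e-04), and the Ms4a2 probe sets by 5.52 (SE 0.68, adjusted p = 1.96e-04) and 1.95 (SE 0.25, adjusted p = 2.52e-04). The Hdc probe sets differed by 3.03 (SE 0.54, adjusted p = 0.0041) and 1.82 (SE 0.38, adjusted p = 0.0131), the former an 8.15-fold rise. Without VENUS-negative pool 1 the smaller Hdc difference was not called (1.51, adjusted p = 0.137). Mcpt8 at 1.71 (SE 0.48, adjusted p = 0.0618) and Fcer1a at 1.96 (SE 0.82, adjusted p = 0.263) were not called. The median over the 7 probe sets was 1.96, against -0.01 over all probe sets. A fit of these 5 arrays with the pool number as a replicate block called 0 of 45037 probe sets, so its 0 of 7 is no result about the members. Irf8 fell by 5.01 in the same comparison (SE 0.47, adjusted p = 1.74e-05), from 10.88 ± 0.19 (SD, n = 3) to 5.87 ± 0.54 (n = 2).

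**Figure D2:**
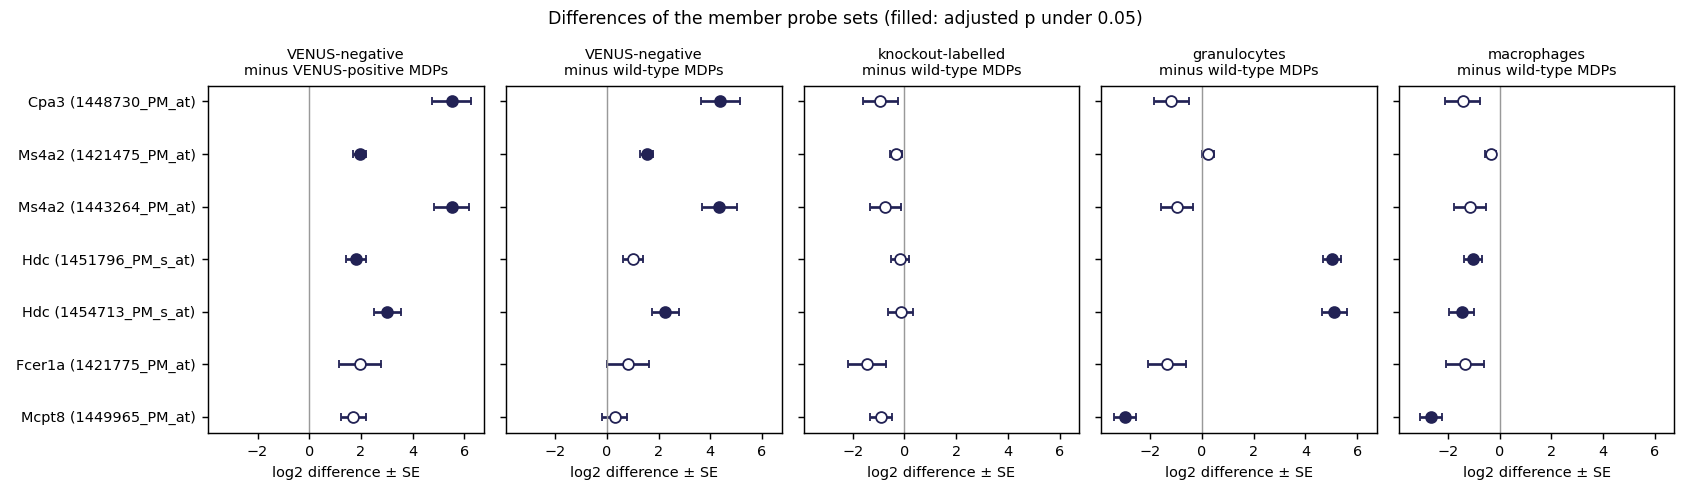
Log2 difference of each member probe set in 5 comparisons, with limma's standard error as the bar. Filled points have an adjusted p under 0.05. The 5 filled points of VENUS-negative minus VENUS-positive MDPs lie between 1.82 and 5.52, all comparisons with wild-type MDPs use the same 3 wild-type arrays, and granulocytes show Hdc on the right and Mcpt8 on the left.

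Against wild-type MDPs, VENUS-negative MDPs called 4 of 7 member probe sets (background 3.99%). Cpa3 rose by 4.38 (SE 0.75, adjusted p = 0.00358), Ms4a2 by 4.36 (SE 0.68, adjusted p = 0.00167) and 1.54 (SE 0.25, adjusted p = 0.00208), and the brighter Hdc probe set by 2.27 (SE 0.54, adjusted p = 0.0297). That Hdc call was lost without wild-type pool 1 or 2 or either VENUS-negative pool (adjusted p 0.0967 to 0.137). Without wild-type pool 3 the count was 6 of 7, with Cpa3 at 5.51 (adjusted p = 2.40e-06), the brighter Ms4a2 probe set at 5.38 (adjusted p = 7.06e-07) and Fcer1a at 2.14 (adjusted p = 4.67e-04, against 0.82 and 0.763 with that pool). Mcpt8 was not called either way, at 0.31 (adjusted p = 0.876) with the pool and 0.96 (adjusted p = 0.143) without it. A fit of these 2 groups alone called 0 of 7 and 564 of 45037 probe sets, and with a replicate block it called 0 of 45037.

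Against knockout-labelled MDPs, VENUS-negative MDPs again called 4 of 7 (background 4.74%). Cpa3 differed by 5.31 (SE 0.75, adjusted p = 5.79e-04), Ms4a2 by 5.10 (SE 0.68, adjusted p = 3.35e-04) and 1.87 (SE 0.25, adjusted p = 3.12e-04), and the brighter Hdc probe set by 2.41 (SE 0.54, adjusted p = 0.0173). That Hdc call was lost without either VENUS-negative pool or without knockout-labelled pool 2 (adjusted p 0.0589 to 0.0962), and without the latter the other Hdc probe set was called instead (1.55, adjusted p = 0.0298), so the count stayed at 4. Irf8 differed by -4.44 here (adjusted p = 4.37e-05). With a replicate block 0 of 45037 probe sets were called. These 3 comparisons share the same VENUS-negative arrays, so they are not separate evidence.

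Knockout-labelled minus wild-type MDPs called 0 of the 7 (limma, background 0.575%), and 1 of them, Mcpt8, had an unadjusted p under 0.05. All 7 differences were below 0, with a median of -0.74 against 0.01 over all probe sets. Fcer1a differed by -1.46 (SE 0.74, adjusted p = 0.682), Cpa3 by -0.93 (SE 0.67, adjusted p = 0.854) and Mcpt8 by -0.92 (SE 0.43, adjusted p = 0.616). Those sizes rested on wild-type pool 3. Without it Fcer1a differed by -0.14 (SE 0.24), Mcpt8 by -0.27 (SE 0.28), Cpa3 by 0.20 (SE 0.35) and the brighter Hdc probe set by 0.52 (SE 0.38), so that the sign turned for Cpa3, both Hdc probe sets and the brighter Ms4a2 probe set (0.28), and 0 were called. Irf8, which fell in the VENUS-negative pools, read 10.34 ± 0.19 (SD, n = 3) in wild-type MDPs and differed by -0.03 in the knockout-labelled ones (adjusted p = 0.998). Which part of the gene the knockout removes is not stated in the labels, so this value does not check them.

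VENUS-positive minus wild-type MDPs called 0 of 7 as well, where 0% of all probe sets were called (limma, with 2661 of 45037 at an unadjusted p under 0.05). Mcpt8, at -1.40 (SE 0.43, adjusted p = 0.636), and the dimmer Hdc probe set, at -0.82 (SE 0.34, adjusted p = 0.800), had unadjusted p-values under 0.05. Without wild-type pool 3 these became -0.75 and -0.42. Cpa3 moved from -1.14 to -0.01 and Fcer1a from -1.14 to 0.18.

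The mature spleen cells differed from wild-type MDPs in opposite ways for Hdc and in the same way for Mcpt8. In granulocytes 3 of 7 probe sets were called, where 38.4% of all probe sets were, so the count itself is near the background. Hdc rose 34.5-fold (log2 difference 5.11, SE 0.48, adjusted p = 1.23e-06) and, by the other probe set, 32.4-fold (5.02, SE 0.34, adjusted p = 5.71e-08). Mcpt8 fell 7.96-fold (log2 difference -2.99, SE 0.43, adjusted p = 6.33e-05). Without wild-type pool 3 the Hdc differences were 5.77 and 5.42 and that of Mcpt8 -2.34, all called, and the dimmer Ms4a2 probe set was called in addition (0.51, adjusted p = 0.0482). The median over all probe sets was 0.11 in this comparison, so differences of that size carry no direction.

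In macrophages 3 of 7 were called against wild-type MDPs (background 18.9%). Mcpt8 fell 6.38-fold (log2 difference -2.67, SE 0.43, adjusted p = 3.87e-04), and -2.02 without wild-type pool 3 (adjusted p = 2.23e-04). The Hdc probe sets differed by -1.47 (SE 0.48, adjusted p = 0.047) and -1.03 (SE 0.34, adjusted p = 0.050), both only just under the threshold. Without wild-type pool 3 they were -0.81 (adjusted p = 0.202) and -0.63 (adjusted p = 0.226), and both calls were also lost without any 1 of the 3 macrophage pools (adjusted p 0.071 to 0.179). Macrophages minus granulocytes called 2 of 7 (background 24.9%), both of Hdc, at -6.58 (SE 0.48, adjusted p = 2.60e-07) and -6.05 (SE 0.34, adjusted p = 2.35e-08). The dimmer Ms4a2 probe set differed by -0.57 (SE 0.22, adjusted p = 0.074).

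Other genes of the pathway were read from fixed lists, with the brightest probe set standing for a gene. Of 11 measured transcription factor genes of mast cells and basophils, 4 rose and 1 fell in VENUS-negative against VENUS-positive MDPs, where 2.59% of all 17097 genes rose and 2.81% fell, with a median of 0.41 against -0.01 over all genes. Gata1, of the erythroid, mast cell and eosinophil lineages, rose by 4.53 (SE 0.55, adjusted p = 1.92e-04), Tal1 by 3.23 (SE 0.56, adjusted p = 0.00336) and Gata2 by 2.67 (SE 0.23, adjusted p = 7.57e-06), its other probe set by 4.51. Mitf, a factor of mature mast cells, fell by 1.64 (adjusted p = 0.0282), a call lost in each of the 5 fits without 1 array (adjusted p up to 0.16). Stat5a, which relays cytokine signals, rose by 1.23 (adjusted p = 0.00248). In wild-type pools 1 to 3 Gata1 read 4.94, 5.24 and 6.92, the brightest Gata2 probe set 5.74, 6.08 and 6.41, and the other one 5.51, 5.67 and 7.37. The latter also read 7.11 in VENUS-positive pool 1, where the brightest Gata2 probe set was at 6.00, Gata1 at 5.15 and Cpa3 at 2.82. In knockout-labelled minus wild-type MDPs limma called 0 of the 11 (4 at an unadjusted p under 0.05, median -0.08), and 0 with wild-type pool 3 left out (median 0.01), where 0.374% of genes rose and 0.409% fell. In granulocytes against wild-type MDPs 2 of the 11 rose and 3 fell (median -0.05, where 21.3% of all genes rose and 22.6% fell with a median of 0.10), the same counts as with wild-type pool 3 left out (median 0.11). Bhlhe40, an activation-linked repressor, rose by 2.53, and Lmo2 (-2.58), Cebpa (-1.45) and Runx1 (-1.28), factors of early blood cells, were lower.

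**Figure D3:**
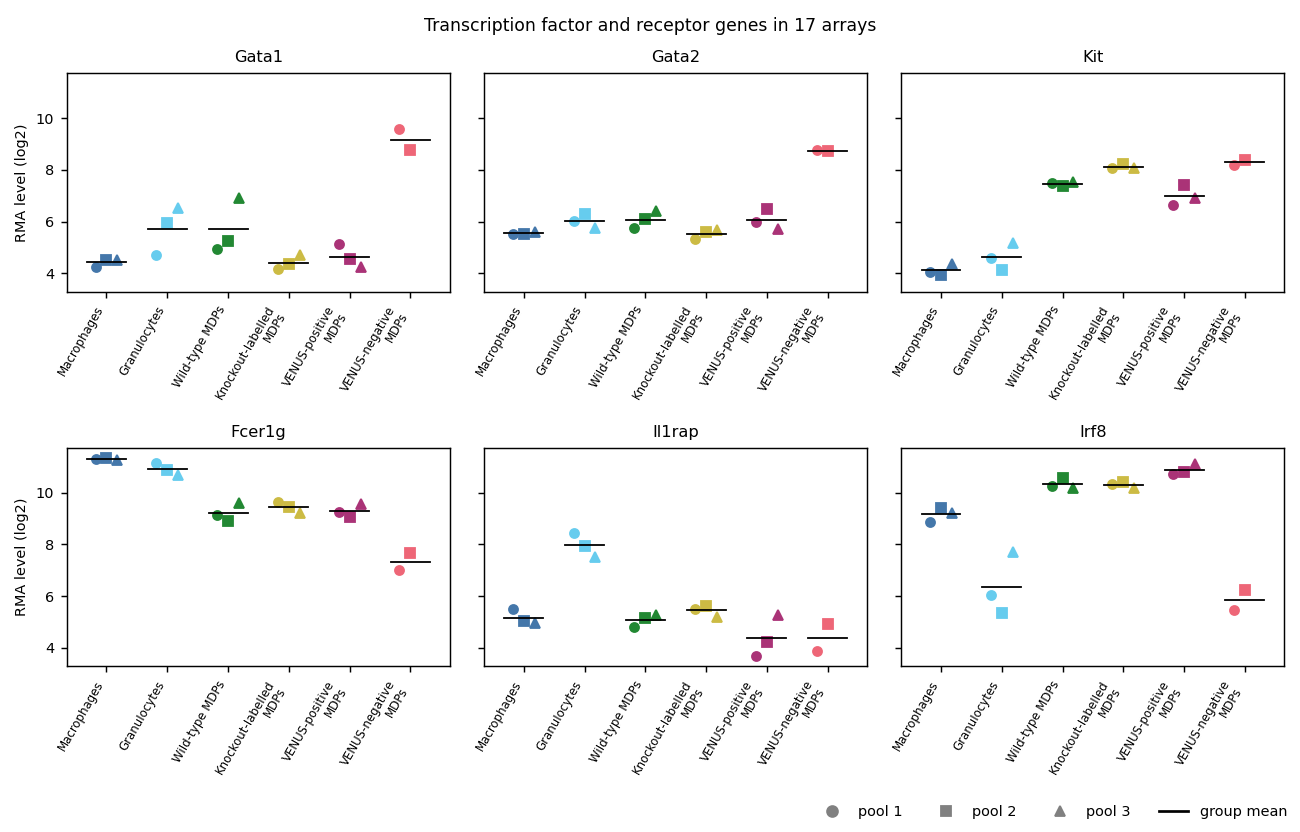
RMA level (log2) of Gata1, Gata2, Kit, Fcer1g, Il1rap and Irf8 on each array, by group, with pools as points and group means as lines. Gata1 and Gata2 are highest and Irf8 lowest in the VENUS-negative MDPs among the MDP groups, Fcer1g is highest in the spleen groups and Il1rap in granulocytes.

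Of 11 measured genes of the receptor and its signalling, 1 rose and 3 fell in VENUS-negative against VENUS-positive MDPs, with a median of -0.20. In this comparison 2.59% of all genes rose and 2.81% fell. Fcer1g, the shared gamma chain, fell by 1.96 (SE 0.24, adjusted p = 1.82e-04), from 9.30 ± 0.26 (SD, n = 3) to 7.34 ± 0.45 (n = 2). Lat, an adaptor of T cells, mast cells and platelets, rose by 2.74 (SE 0.31, adjusted p = 1.10e-04), whereas the related adaptor Lat2 fell by 1.56 (adjusted p = 6.49e-04) and the phospholipase gene Plcg2 by 0.85 (adjusted p = 0.013, and 0.17 without VENUS-negative pool 1). In granulocytes against wild-type MDPs 6 of the 11 rose and 1 fell (median 0.70), where 21.3% of all genes rose and 22.6% fell. The rises were led by the kinase gene Syk (2.80, limma adjusted p = 1.44e-06), Lcp2 (2.11), Gab2 (1.81) and Fcer1g (1.68). With wild-type pool 3 left out, 5 rose and 1 fell. Granulocytes had Fcer1g at 10.67 to 11.14 and Fcer1a at 2.66 to 2.75.

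Of 10 measured mast cell protease genes 1 rose in the VENUS comparison, Gzmb (2.47, SE 0.44, adjusted p = 0.0043), which encodes granzyme B and read 4.47 and 6.73 in the VENUS-negative pools. The list's median was 0.04, and 2.59% of all genes rose and 2.81% fell in that comparison. Mcpt4, the chymase of connective tissue mast cells, lay between 2.51 and 2.98 on all 17 arrays, and was 2.92 and 2.98 in the VENUS-negative pools. Mcpt1, Mcpt2 and Mcpt9 also lay under the lower quartile band on every array. The tryptase genes Tpsab1 and Tpsb2 read 3.57 and 3.47, and 4.12 and 4.11, in the VENUS-negative pools, and Cma1, another chymase gene, 5.26 and 5.19. These levels were chosen after they were seen. In granulocytes 4 of the 10 rose and 1 fell (median 0.20), where 21.3% of all genes rose and 22.6% fell. Gzmb (3.36) and Cma1 (1.93) led the rises, and Ctsg, a protease of immature granulocytes, fell by 6.33. When wild-type pool 3 was left out, 3 rose and 1 fell.

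Of 9 measured surface receptor genes 1 rose between VENUS-negative and VENUS-positive MDPs (median -0.07), where 2.59% of all genes rose and 2.81% fell. The 1 that rose was Kit, which encodes CD117, the stem cell factor receptor that mast cells keep (1.32, SE 0.26, adjusted p = 0.00885, and 0.0735 without VENUS-negative pool 2). In VENUS-negative MDPs Kit was not called against wild-type MDPs (0.82, limma adjusted p = 0.113). Nor was it called against knockout-labelled MDPs (0.16, adjusted p = 0.893), which read 8.12 on average against 8.29. The knockout comparison called 1 receptor gene, the integrin gene Itgb7, which fell by 1.80 (SE 0.34, adjusted p = 0.0276, and up to 0.115 without 1 array). In that comparison 0.374% of all genes rose and 0.409% fell. With wild-type pool 3 left out Itgb7 fell by 1.34 (adjusted p = 0.0458) and Csf2rb was called higher (1.35, adjusted p = 0.0467). In granulocytes 4 of the 9 rose and 2 fell (median 0.67), where 21.3% of all genes rose and 22.6% fell. Csf2rb (2.32) and Csf2rb2 (2.06), signalling chains of the interleukin-3 receptor family, were higher. Kit (-2.83) and Ms4a3 (-2.75) were lower, but MDPs were sorted as CD117+ and granulocytes were not, so the gates bear on Kit. With wild-type pool 3 left out, 5 rose and 2 fell. In interleukin-33 and interleukin-18 receptor signalling, of which ST2 itself was not analysed here, limma called 0 of 6 genes in the VENUS comparison (0 at an unadjusted p under 0.05, median -0.01), and Il1rap, the chain ST2 pairs with, differed by 0.00. In granulocytes 4 of those 6 rose and 1 fell (median 2.99), namely the interleukin-18 receptor genes Il18rap (3.89) and Il18r1 (3.65), Myd88 (3.09), the adaptor of both pathways, and Il1rap (2.88), against the kinase gene Irak1 (-1.90). The counts were the same with wild-type pool 3 left out (median 3.12).

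Of 5 measured genes of granule amines and proteoglycan limma called 0 in the VENUS comparison (2 at an unadjusted p under 0.05, median 0.13). In granulocytes 2 of the 5 rose (median 0.05), where 21.3% of all genes rose and 22.6% fell. They were Hnmt (2.51), which breaks down histamine, and Srgn (1.17), the core protein of granule proteoglycan. Of 6 lipid mediator genes limma called 0 in the VENUS comparison (1 at an unadjusted p under 0.05, median 0.01). In granulocytes 3 rose (median 1.23), the leukotriene genes Alox5 (3.97) and Alox5ap (1.96) and the cyclooxygenase gene Ptgs2 (2.07). Of 4 type 2 cytokine genes limma called 0 in the VENUS, knockout and granulocyte comparisons, with 1 at an unadjusted p under 0.05 in the last. With wild-type pool 3 left out, the counts of the amine, lipid and cytokine lists in granulocytes were the same, with medians of 0.15, 1.30 and 0.22.

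Eosinophil genes, which share factors with basophils, were followed as another lineage the sort could hold. Of 6 measured, 1 rose, Siglecf, in the VENUS comparison (2.91, SE 0.48, adjusted p = 0.00227), with a list median of 1.69. In that comparison 2.59% of all genes rose and 2.81% fell. Prg2, the major basic protein gene, read 8.07 and 7.44 in VENUS-negative pools and 3.91, 4.41 and 4.07 in VENUS-positive ones (3.62, SE 1.27, adjusted p = 0.150), and reached 10.26 in wild-type pool 3 against 4.47 and 3.95 in pools 1 and 2. Epx, the eosinophil peroxidase gene, read 8.71 in wild-type pool 3, 4.49 and 4.40 in the other wild-type pools, and 6.01 and 5.68 in VENUS-negative pools (1.43, SE 0.86, adjusted p = 0.507). Like Fcer1a, both were higher in wild-type pool 3 than in either VENUS-negative pool. In granulocytes Siglecf (2.92), Ccr3 (1.88) and Il5ra (1.03) rose, where 21.3% of all genes rose and 22.6% fell. The list median was 0.13, and it was 1.24 without wild-type pool 3, where 4 rose. In the knockout comparison limma called 0 of 6 (0 at an unadjusted p under 0.05, median -0.98), and 0 with a median of 0.03 when wild-type pool 3 was left out.

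**Figure D4:**
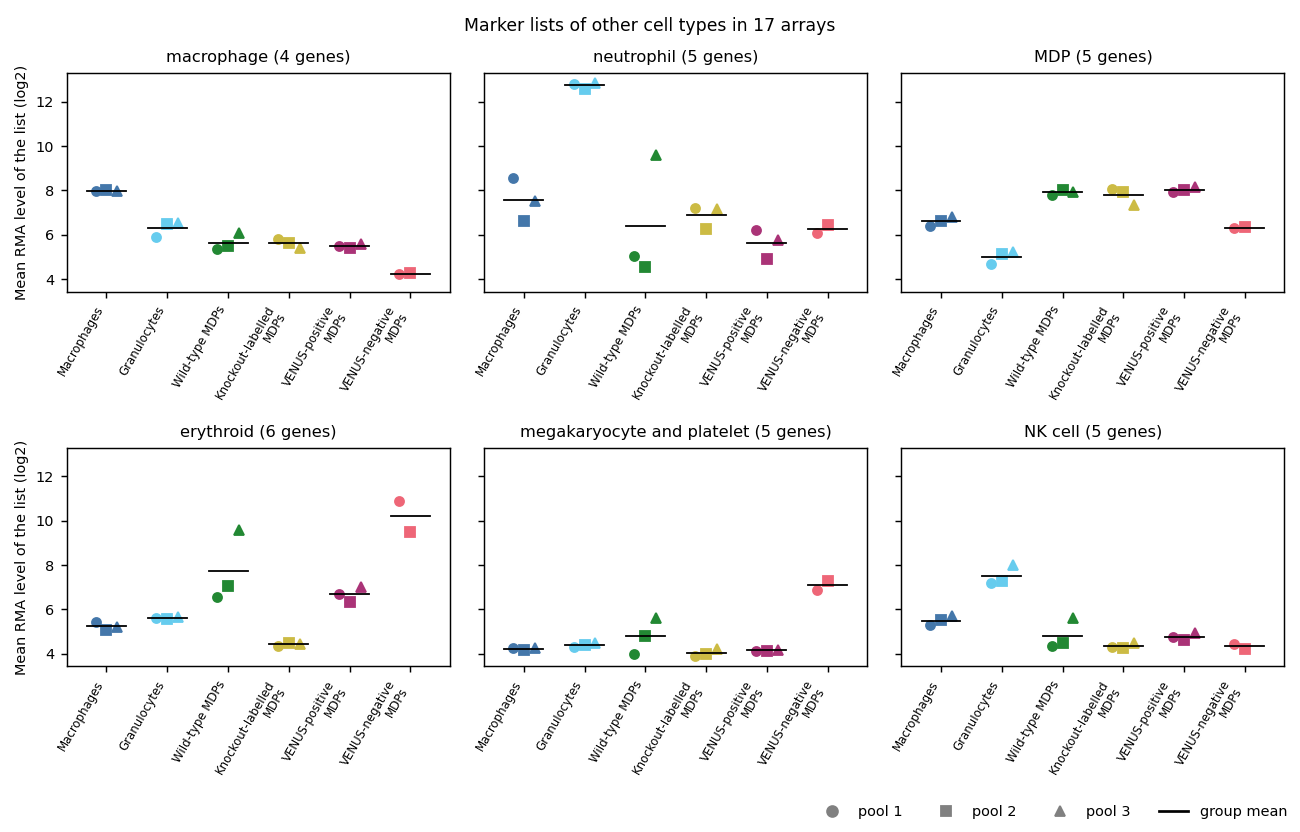
Mean RMA level (log2) of 6 lists of cell type markers on each array, by group, with pools as points and group means as lines. By group mean the erythroid and megakaryocyte lists are highest in VENUS-negative MDPs and the neutrophil list in granulocytes. In the erythroid list wild-type MDP pool 3 (9.57) lies above VENUS-negative pool 2 (9.50). Wild-type MDP pool 3 stands above wild-type pools 1 and 2 in every list shown except that of MDP markers.

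Markers of 2 other lineages were higher in the VENUS-negative pools, where the members were high. In VENUS-negative MDPs the mean of the 6 erythroid markers was 10.89 and 9.50, against 6.32 to 7.03 in VENUS-positive, 6.57 to 9.57 in wild-type MDPs and a lowest and median of 4.35 and 4.46 in knockout-labelled MDPs. Of the 6, 4 rose in the VENUS comparison, where 2.59% of all genes rose and 2.81% fell. The mean of the 5 megakaryocyte and platelet markers was 6.88 and 7.29, against 4.14 to 4.17 in VENUS-positive MDPs, with 3 of 5 called higher. In the knockout comparison, where 0 members were called, 4 of the 6 erythroid markers fell, and 3 with wild-type pool 3 left out. Of all genes 0.409% fell with that pool kept. Of 3 B-cell, 3 T-cell and 5 NK-cell markers limma called 0 in the VENUS comparison, with 1 at an unadjusted p under 0.05. The MDP markers Kit, Csf1r, Flt3, Cd34 and Cx3cr1 had a mean of 6.29 and 6.35 in VENUS-negative pools against 7.36 to 8.16 in the other MDP pools, and 4 of the 5 fell and 1 rose in the VENUS comparison. Csf1r, which encodes the receptor of the sort gate, read 5.09 and 4.83 there, under its 7.16 to 8.56 in granulocytes, which were sorted as lacking that receptor. The granulocyte pools also had the highest means of the 5 NK-cell markers, at least 7.18 against 4.21 to 5.70 on the other arrays. In spleen the 4 macrophage markers were highest in macrophages (7.97 to 8.01) and the 5 neutrophil markers in granulocytes (12.57 to 12.84), as the labels have it. The part of these other cells in the members' levels was not tested.

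The genes whose 6 group means were most like those of each member were found among 17097 genes by the root mean square distance of centred means, as a description. Nearest to Cpa3 were Csrp3 (0.25 log2 units), Mfsd2b (0.30) and Aqp1 (0.42), and nearest to Ms4a2 were Csrp3 (0.19), Mfsd2b (0.33) and Atp1b2 (0.37). Csrp3 encodes a LIM-domain protein known from striated muscle, and its group mean was 9.15 in VENUS-negative MDPs and 4.01 to 5.00 in the other groups. Nearest to Hdc was Gadd45a (0.43), a gene of the DNA damage response with 9.44 in granulocytes and 7.01 in VENUS-negative MDPs, followed by St3gal6 (0.79) and Aqp9 (0.81). Aldh1a7 (0.12), Cers4 (0.19) and Slc38a5 (0.20) were nearest to Fcer1a, and Bora (0.29), Tpm2 (0.35) and Cox6b2 (0.36) to Mcpt8. The neighbours of Cpa3 and Ms4a2 overlapped in Csrp3 and Mfsd2b, and no gene was shared with the neighbours of the other members.

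**Figure D5:**
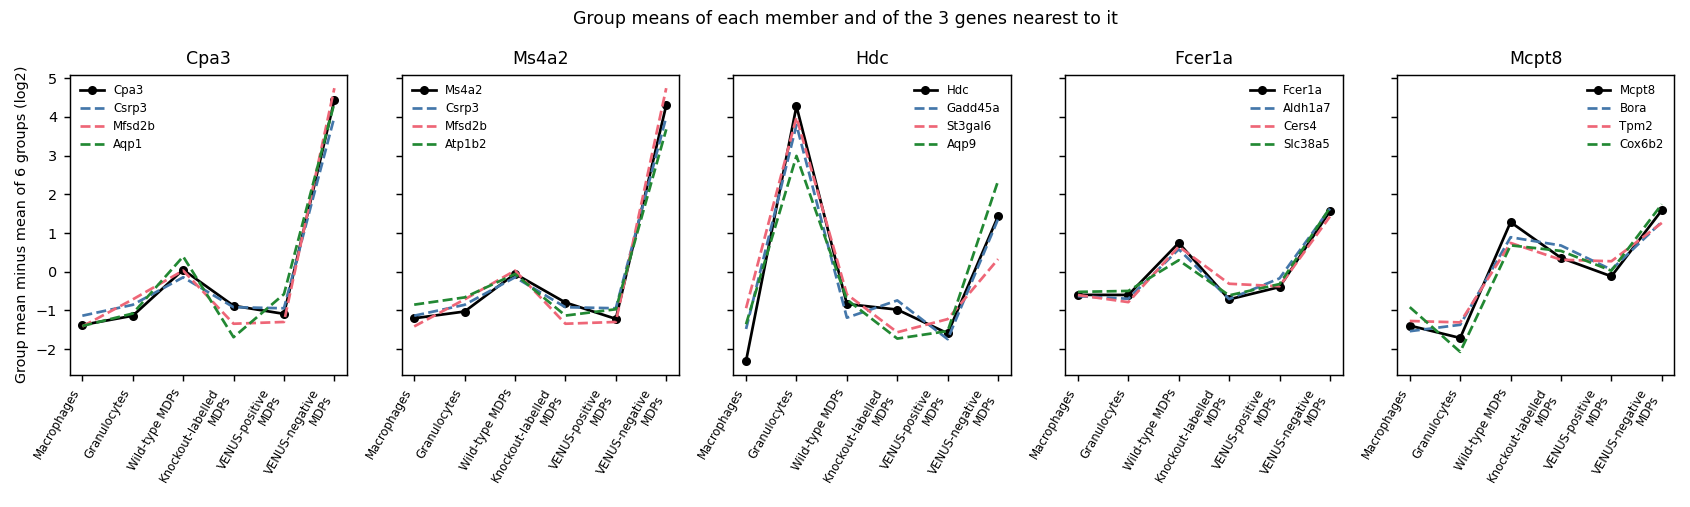
Group means of each member (black, its brightest probe set) and of the 3 genes nearest to it (dashed), each minus its own mean over the 6 groups, in log2 units. Cpa3 and Ms4a2 are highest in VENUS-negative MDPs, Hdc in granulocytes and less so in VENUS-negative MDPs, and Mcpt8 is higher in the 4 MDP groups than in the 2 spleen groups.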

How the data were processed

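The deposited values are log2 expression values that the authors made with Affymetrix Expression Console and RMA, per the submitters' processing notes; versions and genome build: not given in the sources used here. RMA shrinks differences near background. Platform annotation gave 1 symbol to 28898 of 45037 probe sets. The number of arrays limits the precision, and 0 arrays were identical.

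The values were fitted with limma 3.58.1 in R 4.3.3 (lmFit, eBayes, two-sided), 1 mean per group over 17 arrays with shared spread, checked on simulated data. Benjamini-Hochberg adjustment ran over all 45037 probe sets, and called means an adjusted p under 0.05. A difference is the first group's mean minus the second's. No probe set was filtered. Named genes were the members, Gata1, Gata2, Kit, Fcer1g, Il1rap and Irf8, up to 4 called genes of each list with the largest difference, and the 3 nearest genes of each member; other names were chosen after their values were seen. The members and lists were chosen with earlier results of these data known. Alternatives were the 2 groups alone, the pool number as a replicate block, a filter, 2 scalings, 1 probe set per gene, another prior and leaving out each array.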

Additional observations from a re-analysis of the deposited data

How the results depend on the processing

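No difference of a called member probe set changed sign under any alternative; of 250 such refits 41 lost the call. Counts of called member probe sets stayed within 1.5 times of those reported in 90 of 101 refits. These include every refit of knockout-labelled and of VENUS-positive minus wild-type MDPs, which gave 0 as reported. In the latter comparison at most 9 of 45037 probe sets were called in any refit, so its 0 says nothing about stability. The knockout refits called from 2 of 45037 to 281 of 23449 probe sets, so their 0 says little about it either. With the pool number as a replicate block, the VENUS-negative comparisons with VENUS-positive, wild-type and knockout-labelled MDPs each gave 0, as they did over all 45037 probe sets. In 0 of the 8 comparisons did all same-numbered pools deviate together (r from -0.07 to 0.12, with 2 of 21 pairs above 0.1). The labels do not say whether the number pairs the pools, and deviations from means of 2 or 3 arrays cannot decide it. The 2 groups alone gave 0 for VENUS-negative minus wild-type MDPs and 1, also with the replicate block, for macrophages minus wild-type MDPs. Without 1 array the latter count ranged from 1 to 3. With 1 probe set per gene, where each gene counts once, macrophages minus granulocytes gave 1. Values near the lower quartile of the arrays carry no order.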
